A study of Homo sapiens with 6 samples.

Results

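The 10 genes described here encode enzymes that make serine, pass its carbon to folate and carry its backbone into cysteine: PHGDH, PSAT1, PSPH, SHMT1, SHMT2, MTHFD1, MTHFD2, MTHFD1L, CBS and CTH. They were chosen by gene name, and each of the 10 names matched 1 of the 45019 rows listed for every sample. The RNA came from MDA-MB-468, an established human breast cancer line of the basal-like, triple-negative kind that carries an amplified EGFR gene and is known for extra copies of PHGDH. Untreated cells were compared with cells given 100 µM DETA/NO, a donor that decays slowly in medium and gives off nitric oxide, and both groups are labelled day 10. Per the treatment protocol, DETA/NO was added 4 h after plating, and every 48 h the dishes of a replicate were collected, pooled and plated again. No vehicle is named for the untreated cells. The series asks whether nitric oxide, through the mRNA demethylase FTO, goes along with changes in gene expression.

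Each group had 3 labelled samples, but the values deposited for DETA/NO replicates 1 and 2 were the same in every row, so both count as a single library, here called DETA/NO 1-2. This leaves n = 3 untreated libraries against n = 2 with DETA/NO. Nothing in the labels states that replicates were separate cultures, so a p-value here reflects the spread among the libraries at hand, which may be technical. The 5 libraries held 28897422 to 34637343 reads, with DETA/NO 1-2 the shallowest. A member had between 300 and 10921 reads in a library. Values below are normalized reads: the reads of a gene divided by a factor for each library, which the authors computed. Untreated libraries are given in the order 1, 2, 3. EGFR stood at 217563 to 226490 normalized reads in untreated libraries and 245827 to 247990 in DETA/NO libraries, and the basal keratin KRT5, EPCAM and CDH1 were also present in every library. Of the receptor genes behind the triple-negative label, only PGR was near 0, with 0.981 to 5.73 normalized reads. ESR1, with 823 to 1093, and ERBB2, with 1429 to 1981, were present in every library. Of the genes listed for this line, KRT6A (log2 fold change 1.07) and VIM (0.682) rose under DETA/NO, and ERBB2 (-0.348) fell. ESR1 was called higher at 0.271, and its log2 fold change was 0.151 without DETA/NO 3. Limma, the test described below, did not call ESR1 without its trend and robust options (adjusted p = 0.0725). RB1, at 67.4 to 111.8 normalized reads, stood at -0.440 and lost its call without untreated 2, untreated 3 or DETA/NO 3. Of 20 markers of fibroblasts, immune, endothelial and fat cells, 2 were at 0 in every library, CD68 among them, and the summed value of the list was 1926 to 2032 in untreated and 1826 to 1943 in DETA/NO libraries. Among the 8 of them that could be tested, COL1A1 (log2 fold change 0.486), PTPRC (1.33), CDH5 (1.2) and KDR (0.546) were higher. CD14 (-1.15) and PLIN1 (-0.524) were lower, although PLIN1 lost its call without untreated 2, untreated 3 or either DETA/NO library. The near-constant sum held opposite moves: the mean of CD14 went from 939 to 423 normalized reads and that of COL1A1 from 599 to 839. The part of these markers in the results below was not tested. In bulk RNA, a change in a share of the cells and a change in every cell cannot be told apart.

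PHGDH, PSAT1 and PSPH form the phosphorylated pathway, which draws 3-phosphoglycerate out of glycolysis and turns it into serine by an oxidation, a transamination and the removal of phosphate. SHMT1 in the cytosol and SHMT2 in mitochondria split serine into glycine and a one-carbon unit held on tetrahydrofolate. MTHFD2 and MTHFD1L carry that unit through to formate in mitochondria, and MTHFD1 takes formate up in the cytosol for purine and thymidylate synthesis. CBS condenses serine with homocysteine to cystathionine, CTH cleaves cystathionine to cysteine, and both can also release hydrogen sulfide. In many tumours and cell lines genes of these pathways respond to the stress factor ATF4.

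Of the 10 genes, 6 rose under DETA/NO, 0 fell and 4 did not pass the test. CTH rose most, to 2.00 times its untreated level, followed by CBS, MTHFD1L, PSAT1, SHMT2 and PSPH with rises of 23.3% to 8.44%. PHGDH, SHMT1, MTHFD1 and MTHFD2 differed by less than the test could resolve. The test was limma on log2(value + 1), with Benjamini-Hochberg adjustment over the 16409 genes whose mean value reached 10, and a gene was called at an adjusted p under 0.05. In this comparison 43.4% of all tested genes were called, 21.7% higher and 21.7% lower, so a call was common in these libraries. The DETA/NO values exceeded every untreated value in the 6 called members, as they did in 30.4% of all tested genes, and the groups overlapped in the other 4 (in 61.2% of all genes they did not overlap in either direction). The members' median log2 fold change was 0.147, against -0.00016 over all tested genes. Because the members were chosen with earlier results of these data known, these contrasts with all genes are description only. The count of 0 lower members held with edgeR and with DESeq2 on the recovered reads, and the lowest-placed member, SHMT1, had an unadjusted p of 0.131 with limma.

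**Figure D1:**
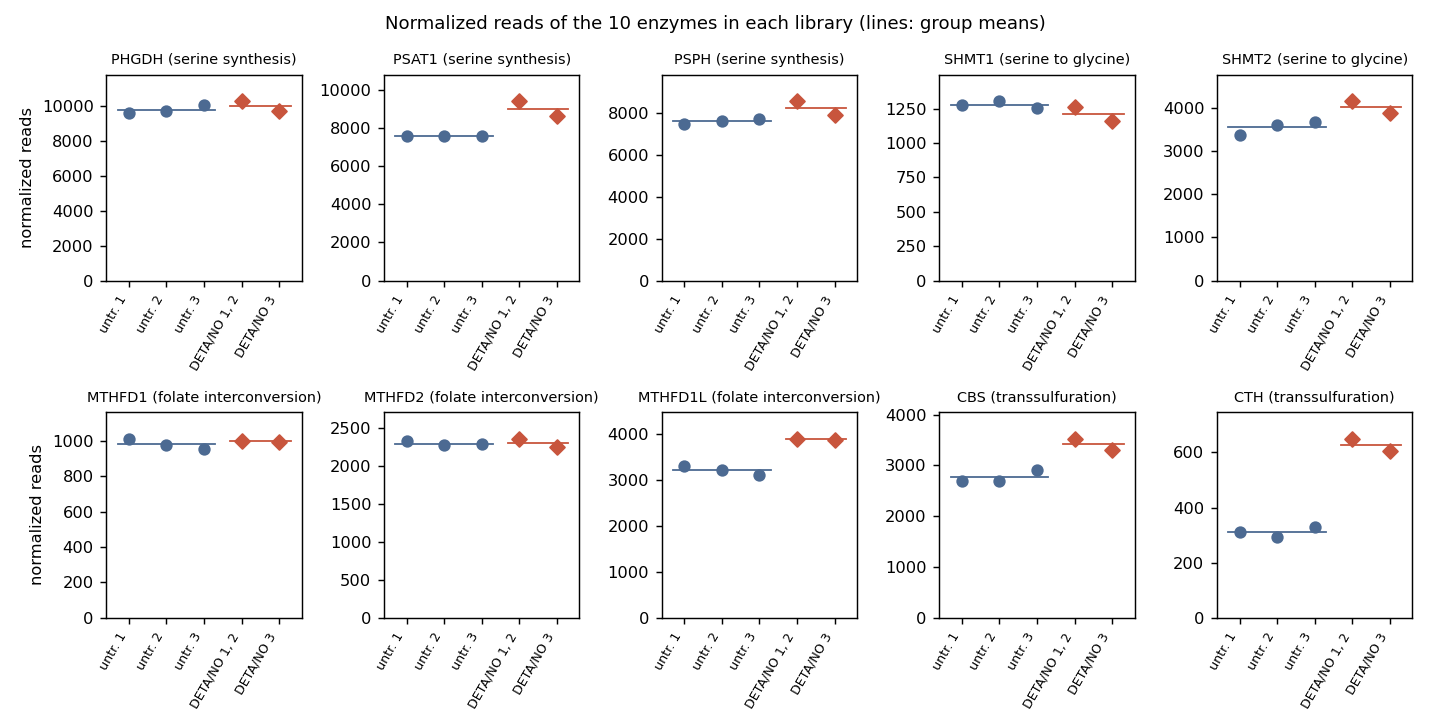
Normalized reads (y axis, from 0) of each of the 10 enzymes in the 3 untreated libraries (blue circles) and the 2 DETA/NO libraries (red diamonds), with lines at the group means. In PSAT1, PSPH, SHMT2, MTHFD1L, CBS and CTH both red points lie above all blue points, with the widest gap in CTH, and in the other 4 panels the groups overlap.

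In the serine pathway PSAT1 and PSPH, the later steps, passed the test and PHGDH, the first, did not. The PHGDH dehydrogenase, which commits 3-phosphoglycerate to serine (chr1:119648411-119744226, + strand, GRCh38), had 9636, 9714 and 10093 normalized reads in untreated libraries and 10282 and 9707 in DETA/NO libraries 1-2 and 3. DETA/NO 1-2 was the highest of the 5 libraries, while DETA/NO 3 lay inside the untreated range. The means were 9814 ± 244 (SD, n = 3) and 9994 ± 407 (SD, n = 2), a log2 fold change of 0.026 ± 0.032 (SE; 95% interval -0.039 to 0.091; limma adjusted p = 0.55). The interval spans 0 and reaches no further than a small rise.

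PSAT1, the aminotransferase of the second step (chr9:78297143-78330093, + strand), had 7589, 7549 and 7564 normalized reads in untreated libraries and 9389 and 8603 in DETA/NO libraries. The untreated libraries were nearly equal, and both DETA/NO libraries lay well above them, DETA/NO 1-2 higher than DETA/NO 3. Means were 7568 ± 20.5 and 8996 ± 555, for a log2 fold change of 0.248 ± 0.034 (95% interval 0.18 to 0.317; limma adjusted p = 3.68e-07). PSPH, the phosphatase that releases serine (chr7:56011051-56051604, - strand), had 7483, 7644 and 7716 normalized reads in untreated libraries and 8576 and 7948 in DETA/NO libraries. The groups did not overlap, but DETA/NO 3 was only a little above the highest untreated library. Means were 7614 ± 119 and 8262 ± 444, a log2 fold change of 0.117 ± 0.033 (limma adjusted p = 0.00471). This call rested on DETA/NO 1-2: without that library the log2 fold change was 0.062 and the adjusted p 0.248. PSPH also has a pseudogene, PSPHP1, but no row of that name was listed.

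Within a library a ratio of 2 genes does not depend on the scaling. PSAT1 over PHGDH was 0.788, 0.777 and 0.750 in untreated libraries and 0.913 and 0.886 in DETA/NO libraries, a difference of 0.222 on the log2 scale. PSPH over PHGDH was 0.777, 0.787 and 0.765 untreated and 0.834 and 0.819 under DETA/NO, a difference of 0.091. Both later steps thus stood higher relative to the first one in each DETA/NO library than in any untreated library. With 3 against 2 libraries there are 10 arrangements, and the two-sided exact permutation test cannot give a p below 0.2. That was the p of both ratios (0.24 after Benjamini-Hochberg adjustment over the 12 ratios computed).

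The PSAT1 promoter is shown because this gene is the one of the serine pathway with the largest rise and its upstream sequence holds 3 copies of CCAAT, the box bound by NF-Y. The run covers 250 bases before the RefSeq start site (chr9:78296875-78297124, + strand, GRCh38.p14), with each CCAAT in capitals. Its GC content is 65.6%.

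PSAT1 upstream: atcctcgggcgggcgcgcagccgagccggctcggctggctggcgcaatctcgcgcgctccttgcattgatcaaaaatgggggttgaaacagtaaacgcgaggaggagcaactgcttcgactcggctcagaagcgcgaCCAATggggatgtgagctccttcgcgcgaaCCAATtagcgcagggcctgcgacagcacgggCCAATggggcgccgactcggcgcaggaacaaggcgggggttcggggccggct

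The boxes lie 113, 83 and 52 bases before the start. CCAAT, searched on both strands after the sequences had been seen, was found in 34.6% of all 35116 RefSeq windows of 300 bases (250 before to 50 after a start). It was found in all 8 member genes that have such a window, PHGDH and the other genes that did not pass the test included, and in 11 of their 13 windows. The share of 34.6% counts windows, not genes. The MTHFD1L windows overlap and hold the same CCAAT, so they are not separate finds. A match is a string of letters and does not show a bound factor.

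Of the enzymes that split serine, the mitochondrial one passed the test and the cytosolic one did not. SHMT2, the mitochondrial form (chr12:57229327-57234935, + strand), had 3370, 3607 and 3662 normalized reads in untreated libraries and 4147 and 3871 in DETA/NO libraries. Both DETA/NO libraries were above all untreated ones. Means were 3546 ± 155 (SD, n = 3) and 4009 ± 195 (SD, n = 2), a rise of 13.1% and a log2 fold change of 0.177 ± 0.039 (SE; limma adjusted p = 0.000518). Limma without its trend and robust options did not call SHMT2 (adjusted p = 0.0937) or PSPH (0.151). SHMT1, the cytosolic form (chr17:18327860-18363563, - strand), had 1279, 1304 and 1252 normalized reads in untreated libraries and 1263 and 1158 in DETA/NO libraries. DETA/NO 3 was the lowest of the 5 libraries and DETA/NO 1-2 lay among the untreated ones. Means were 1278 ± 25.7 and 1211 ± 74.0, for a log2 fold change of -0.079 ± 0.051 (95% interval -0.184 to 0.025; limma adjusted p = 0.221). SHMT2 over SHMT1 was 2.63, 2.77 and 2.92 in untreated libraries and 3.28 and 3.34 in DETA/NO libraries, a difference of 0.256 on the log2 scale (exact permutation p = 0.2, the smallest this design allows).

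Other genes overlap both loci, and the sources used here do not state whether counting used strand. In SHMT2, 9.51% of exon bases are shared with genes on the opposite strand, of which NDUFA4L2 had 21.0 to 47.1 normalized reads. In SHMT1, 3.69% of exon bases are shared with SMCR8 and MIR6778. SMCR8 had 1612, 1817 and 1656 normalized reads in untreated libraries and 1924 and 1797 in DETA/NO libraries, with a log2 fold change of 0.135 (limma adjusted p = 0.028). Its groups overlapped, and the call was lost without untreated 1 (0.159) or DETA/NO 1-2 (0.292).

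Of the enzymes that interconvert one-carbon folates, 1 of 3 rose. MTHFD1L, the mitochondrial formate synthetase (chr6:150865549-151101887, + strand), had 3297, 3203 and 3098 normalized reads in untreated libraries and 3888 and 3870 in DETA/NO libraries. The DETA/NO libraries were close to each other and well above the untreated ones. Means were 3199 ± 99.7 (SD, n = 3) and 3879 ± 12.5 (SD, n = 2), a rise of 21.3% and a log2 fold change of 0.278 ± 0.037 (SE; limma adjusted p = 1.92e-07). MTHFD1L kept its call under each of the 17 alternative settings, with log2 fold changes of 0.255 to 0.300.

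MTHFD2, the mitochondrial dehydrogenase and cyclohydrolase (chr2:74198562-74217565, + strand), had 2332, 2272 and 2284 normalized reads in untreated libraries and 2359 and 2254 in DETA/NO libraries. The DETA/NO libraries were the highest and the lowest of the 5. Its log2 fold change was 0.0065 ± 0.040 (95% interval -0.076 to 0.089; limma adjusted p = 0.915), and the sign of this small value changed with the scaling. MTHFD1, the cytosolic enzyme with all 3 activities (chr14:64388031-64463457, + strand), had 1011, 978 and 951 normalized reads in untreated libraries and 1001 and 992 in DETA/NO libraries. Both DETA/NO libraries lay inside the untreated range. Its log2 fold change was 0.024 ± 0.054 (95% interval -0.086 to 0.135; limma adjusted p = 0.755).

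Opposite-strand genes cover 33.2% of the exon bases of MTHFD2 and 11% of those of MTHFD1. Of those over MTHFD2, AC006030.1 had 79.8 to 101.3 normalized reads and SLC4A5 was listed at 0 in every library. ZBTB25, which overlaps MTHFD1, had 393.1 to 449.2 normalized reads and was not called (adjusted p = 0.516). MTHFD1L over MTHFD2 was 1.41, 1.41 and 1.36 in untreated libraries and 1.65 and 1.72 in DETA/NO libraries, a difference of 0.272 on the log2 scale, and MTHFD1L over MTHFD1 differed by 0.254 in the same direction with no overlap. MTHFD2 over MTHFD1 overlapped between the groups (difference -0.018; exact permutation p = 0.6).

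MTHFD2L, the mitochondrial paralog of MTHFD2, had 1119, 1094 and 1057 normalized reads in untreated libraries and 1209 and 1290 in DETA/NO libraries. Both DETA/NO libraries lay above the untreated ones, here with DETA/NO 3 the higher. Its log2 fold change was 0.196 ± 0.052 (limma adjusted p = 0.00267), and the call was lost without DETA/NO 3 (0.150; adjusted p = 0.0722).

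The promoter windows of the members were searched for 2 motifs on both strands: TGATGNAAN, the response element shared by C/EBP and ATF factors, and TGACNNNGC, the antioxidant response element. They are shown because they are the elements read by ATF4 and NRF2, and capitals mark the match within 29 bases (GRCh38.p14). The MTHFD1L site (chr6:150866347-150866375, + strand) was the only match to TGATGNAAN among the 8 member genes with a window, and 3.61% of all windows hold that motif. The MTHFD2 site (chr2:74198611-74198639, + strand) matched TGACNNNGC on the reverse strand, as did a site in CBS (chr21:43076442-43076470, - strand), and 13.3% of all windows hold this motif.

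MTHFD1L: ccgccggctcTGATGCAATcgcgccgggc
MTHFD2: ttccctcccgGCGCAGTCAccggcgcggt
CBS: ccggctctggGCGCGGTCAcgcggggcgc

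The MTHFD1L match lies 129 and 90 bases before and 24 bases after the first base of its 3 annotated starts. CBS has several annotated starts, and its match lies in the window of only 1 of them, beginning 83 bases before that start. The MTHFD2 match begins 6 bases after its start. MTHFD1L and CBS were among the genes that rose and MTHFD2 was not called. CTH, the gene with the largest rise, had neither motif in its window, which says only that these letters are not in those 300 bases.

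In transsulfuration both genes rose, CTH by the most of all members. CTH, which releases cysteine from cystathionine (chr1:70411218-70439851, + strand), had 313, 294 and 331 normalized reads in untreated libraries and 649 and 605 in DETA/NO libraries. No DETA/NO library came near the untreated range. The mean went from 313 ± 18.3 (SD, n = 3) to 627 ± 31.4 (SD, n = 2), a 2.00-fold rise with a log2 fold change of 1.00 ± 0.080 (SE; 95% interval 0.839 to 1.17; limma adjusted p = 5.83e-12). CTH kept its call under each of the 17 alternatives, with log2 fold changes of 0.952 to 1.05. Of all tested genes, 367 (2.24%) had a larger log2 fold change.

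CBS, the synthase that makes cystathionine (chr21:43053191-43076943, - strand), had 2689, 2694 and 2920 normalized reads in untreated libraries and 3526 and 3301 in DETA/NO libraries. Again the DETA/NO values exceeded every untreated one. The mean went from 2768 ± 132 to 3413 ± 159, a rise of 23.3% and a log2 fold change of 0.303 ± 0.041 (limma adjusted p = 4.69e-07). CBS values are uncertain in one respect, because the reference holds a copy that shares much of its sequence, CBSL (chr21:6444869-6468040, - strand), and the way reads were divided between them is not given in the sources used here. Of the 50-base words in CBSL transcripts, 91% also occur in CBS transcripts, and of those in CBS transcripts 54.5% occur in CBSL.

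CBSL had 2018, 2016 and 2143 normalized reads in untreated libraries and 2617 and 2486 in DETA/NO libraries, and its log2 fold change of 0.309 ± 0.042 was near that of CBS. The 2 genes kept a nearly fixed proportion: CBSL over CBS was 0.750, 0.748 and 0.734 untreated and 0.742 and 0.753 under DETA/NO (exact permutation p = 0.8). Because CBSL shares most of its sequence with CBS, this proportion cannot tell the 2 loci apart. Their sum was 4826 ± 205 (SD, n = 3) in untreated and 5965 ± 252 (SD, n = 2) in DETA/NO libraries, a log2 ratio of 0.306, so that the size of the CBS rise was almost the same with or without the copy.

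CTH also stood higher relative to CBS. The ratio of CTH to CBS was 0.116, 0.109 and 0.113 in untreated libraries and 0.184 and 0.183 in DETA/NO libraries, a difference of 0.703 on the log2 scale, and CTH over the sum of CBS and CBSL differed by 0.700. The DETA/NO libraries were almost alike and clear of the untreated ones (exact permutation p = 0.2, the smallest possible; 0.24 adjusted over the 12 ratios). The limma intervals of CTH (0.839 to 1.17) and CBS (0.219 to 0.387) do not overlap.

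**Figure D2:**
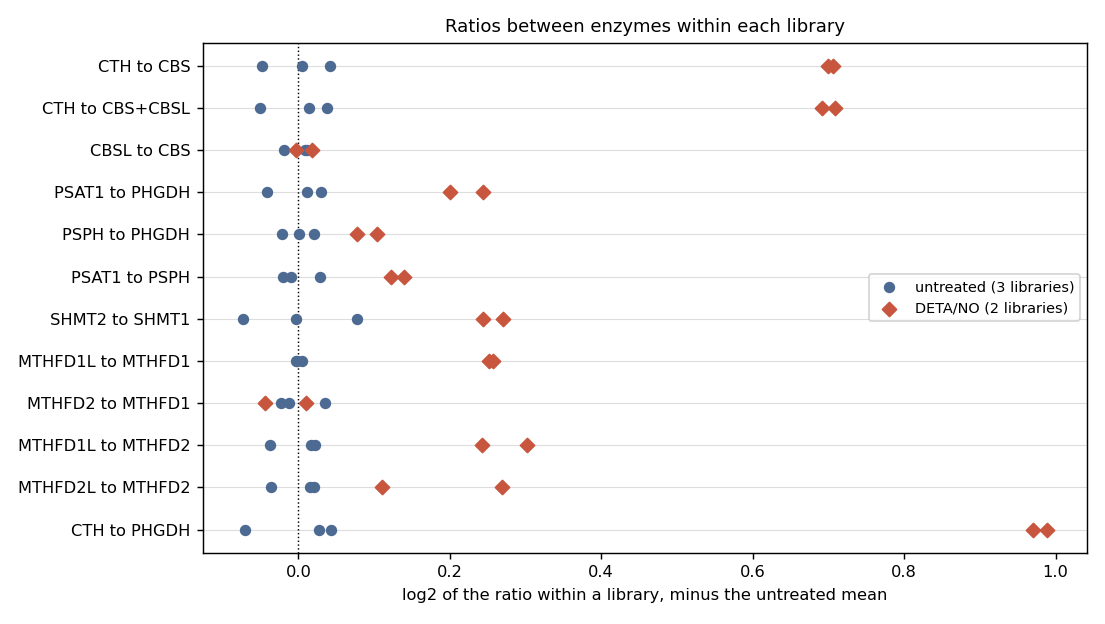
Log2 of 12 ratios between genes within each library, minus the untreated mean (x axis), for the 3 untreated (blue circles) and 2 DETA/NO libraries (red diamonds). CTH over PHGDH and CTH over CBS differ most, at 0.979 and 0.703, and CBSL over CBS and MTHFD2 over MTHFD1 overlap between the groups.

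The CTH promoter is shown as the gene with the largest rise. The run covers the 200 bases before the gene's first annotated base in GENCODE (chr1:70411018-70411217, + strand, GRCh38.p14), with its single CCAAT in capitals and a GC content of 64.5%.

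CTH upstream: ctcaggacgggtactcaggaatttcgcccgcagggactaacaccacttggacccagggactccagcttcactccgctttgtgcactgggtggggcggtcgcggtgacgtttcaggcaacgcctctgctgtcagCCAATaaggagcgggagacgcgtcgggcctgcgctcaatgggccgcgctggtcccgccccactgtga

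The members' fold changes also varied with the library. DETA/NO 1-2 was above DETA/NO 3 in all 10 members, against 49.3% of all tested genes, and the median log2 difference between these 2 libraries was 0.097 over the members and -0.0022 over all genes. DETA/NO 1-2 exceeded every untreated library in 8 members and DETA/NO 3 in 6, while in all tested genes these shares were 38.3% and 37.7%. Over the untreated mean, the members' median log2 value was 0.199 in DETA/NO 1-2 and 0.094 in DETA/NO 3. DETA/NO 1-2 is also the shallowest library and the one whose values were deposited for both replicates, and the part of either in this gap was not tested. Without DETA/NO 1-2, 5 members were called, PSPH being lost, and without DETA/NO 3, 6.

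**Figure D3:**
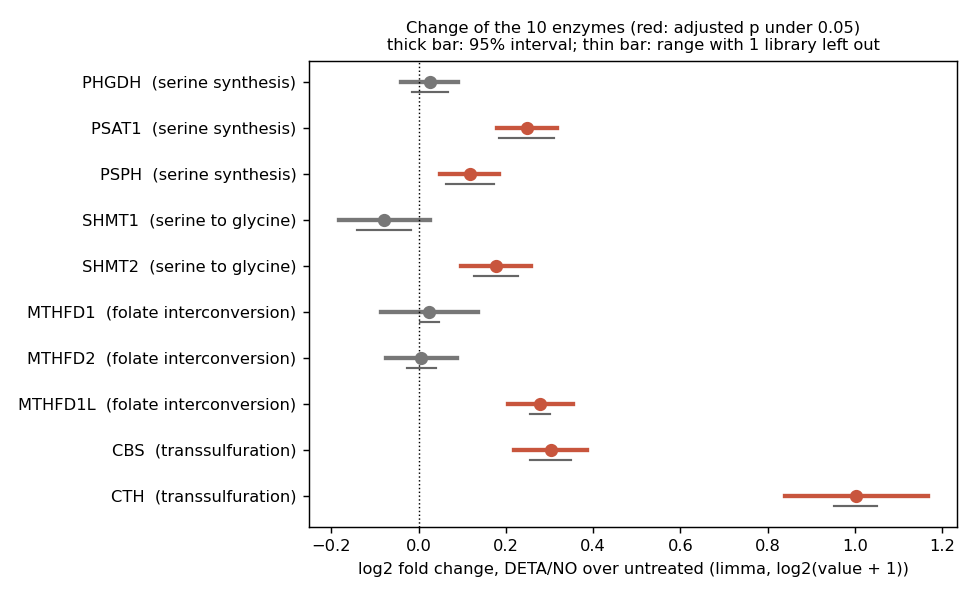
Log2 fold change of DETA/NO over untreated (x axis) for each enzyme, with the 95% limma interval (thick bar) and the range of the fold change when 1 library at a time is left out (thin bar). Red marks the 6 genes with an adjusted p under 0.05; CTH lies at 1.00 and the others between -0.079 and 0.303.

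Per length, the genes of serine synthesis were the most abundant members. Divided by the merged exon length in kb, untreated PSAT1 stood at 3459 ± 9.36 (SD, n = 3) normalized reads per kb, above 98.6% of 15842 genes, and PSPH at 2757 ± 43.1. PHGDH followed with 1065 ± 26.5, SHMT2 with 733 ± 32.1, MTHFD1L with 637 ± 19.9, MTHFD2 with 471 ± 6.53 and CBS with 408 ± 19.4. SHMT1 at 176 ± 3.53, CTH at 129 ± 7.57 and MTHFD1 at 105 ± 3.21 were lowest, near the middle of all genes. No 2 neighbours in this order overlapped between the untreated libraries. CBS is placed here without the reads listed for CBSL, whose untreated mean was 2059 normalized reads beside 2768 for CBS. Its place, also beside MTHFD2 under DETA/NO, thus depends on how reads were divided between CBS and CBSL.

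Under DETA/NO the order per kb of merged exon changed in 2 places: CBS (503 per kb) passed MTHFD2 (474 per kb), and CTH (259.8 per kb) passed SHMT1 (166 per kb). The place of PHGDH depends on the length used, because its merged exons span 9217 bases and its longest coding transcript 2585. Divided by the longest coding transcript, a choice made after the data were seen, PHGDH was first at 3797 ± 94.5 per kb, followed by PSPH at 3496 and PSAT1 at 3459, the last 2 of which overlapped. CTH and MTHFD1 were lowest on that scale as well, at 153 and 144 per kb, and overlapped. Neither change named above was seen on that scale. CBS (1062 per kb) already stood above MTHFD2 (515 per kb) in untreated libraries, and CTH (307 per kb) stayed below SHMT1 (491 per kb) under DETA/NO. There PSAT1 (4111 per kb) moved to first under DETA/NO. MTHFD2 (518 per kb) passed SHMT1, with which it overlapped in untreated libraries.

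Around the 10 enzymes, 7 lists of neighbouring genes held 99 tested genes. Of these, 35 (35.4%) were higher, 18 (18.2%) lower and 46 not called, with a median log2 fold change of 0.072, beside 21.7% in each direction over all tested genes. The 35 include the folate gene FTCD, which passed the filter on low values only through its DETA/NO mean. The lists were chosen with earlier results of these data known, so these shares are description only. Limma without its trend and robust options called 19 of them higher and 12 lower.

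In serine and glycine use outside the members, 4 of 16 tested genes rose and 2 fell. SARS, which charges tRNA with serine, rose by a log2 fold change of 0.191 (from a mean of 7206 to 8226 normalized reads). SPTLC1 and PTDSS1, which build sphingoid bases and phosphatidylserine from serine, rose by 0.167 and 0.165, while SPTLC2, the partner subunit of SPTLC1, fell by 0.231. PTDSS2 at 0.157 and SPTLC3 at -0.163 passed narrowly, and each lost its call without untreated 1, without untreated 2 and without either DETA/NO library. GLDC, the glycine decarboxylase, had 7.65 to 16.6 normalized reads and was not called, and AMT of the same glycine cleavage system was listed at 0. A listed 0 need not mean no expression, since ADSL, an enzyme of purine synthesis that dividing cells use, was also listed at 0 in every library.

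Among other folate genes, 2 of 14 tested rose and 3 fell. TYMS, which makes thymidylate, fell by 0.177. The genes called higher were MTHFD2L, described above, and FTCD, whose untreated mean was 5.07 normalized reads. FTCD passed the filter on low values only through its DETA/NO mean of 21.8, so that its call is no support for a rise in this list. Without DETA/NO 3 the count of higher genes in this list was 0, MTHFD2L missing the threshold and FTCD the filter on low values.

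In the methionine cycle and salvage, 8 of 17 tested genes rose and 3 fell, with a median log2 fold change of 0.123. ODC1, which starts polyamine synthesis, rose by 0.421, SRM, the spermidine synthase, by 0.300, MTRR, which reactivates methionine synthase, by 0.282 and AHCYL2 by 0.213. MAT2A, which makes S-adenosylmethionine, rose by 0.188, from 11536, 11755 and 11713 normalized reads in untreated libraries to 13121 and 13463 in DETA/NO libraries. MTR, methionine synthase itself, fell by 0.196, and AHCYL1 fell by 0.214. AHCY, which yields the homocysteine that CBS uses, had 1006, 1004 and 1029 normalized reads untreated and 1059 and 1178 under DETA/NO. Its log2 fold change of 0.141 passed (adjusted p = 0.0372) but not without DETA/NO 3 (0.065; adjusted p = 0.496), nor without untreated 1 or 2. MAT2B at -0.095 passed, and lost its call without untreated 1, untreated 2 or DETA/NO 1-2.

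Downstream of cysteine, calls went both ways: 5 of 18 tested genes rose and 5 fell, with a median of 0.0097. CHAC1, which degrades glutathione, rose by 0.920 on the log2 scale, from 138, 148 and 186 normalized reads in untreated libraries to 318 and 275 in DETA/NO libraries. SLC3A2 and SLC7A11, the chains of the cystine importer, rose by 0.550 and 0.342, CARS, which charges tRNA with cysteine, by 0.243 and GCLM, the modifier subunit of glutamate-cysteine ligase, by 0.214. GCLC, the catalytic subunit of that ligase, was not called (-0.0061; adjusted p = 0.942). GGT1, which breaks down extracellular glutathione, fell most in this list (log2 fold change -0.766). SUOX, the sulfite oxidase (-0.448), CSAD, of taurine synthesis (-0.281), GGCT (-0.271) and GOT1 (-0.205) fell too. Among enzymes of hydrogen sulfide besides CBS and CTH, MPST stood at 0.140 on the log2 scale (adjusted p = 0.0547) and passed without untreated 3 (0.0097) or DETA/NO 3 (0.0433). SQOR, ETHE1 and TST were not called, though TST passed without untreated 3 (adjusted p = 0.0437).

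In purine synthesis, which takes up formyl groups from folate, 5 of 12 tested genes rose and 1 fell. IMPDH2 of the guanine branch rose by 0.391, PRPS1, which makes the ribose donor, by 0.301 and PPAT, the first committed enzyme, by 0.145. PAICS at 0.094 passed with all libraries and lost its call without DETA/NO 3 (adjusted p = 0.116), when 3 genes of the list were higher. GART and ATIC, whose reactions use formyl folate, had log2 fold changes of -0.023 (not called) and 0.085 (called). ATIC lost its call without untreated 1, untreated 3 or either DETA/NO library (adjusted p = 0.0702 to 0.206), and GART was called lower with quantile normalization (adjusted p = 0.0371). ADSS fell by 0.156, and the count of lower genes was 3 without untreated 2 and 2 without untreated 3 or DETA/NO 3.

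Of transporters for serine and other neutral amino acids, 5 of 10 tested rose and 1 fell, and the median of 0.202 was the highest of the 7 lists. SLC38A2, a sodium-coupled importer, had 14561, 14605 and 14370 normalized reads in untreated libraries and 20352 and 19810 in DETA/NO libraries, a log2 fold change of 0.468. SLC38A1 rose by 0.291 and the glycine transporter SLC6A9 by 0.223 (0.148 without DETA/NO 1-2). SFXN1, the mitochondrial serine carrier, stood at 0.101 and lost its call without untreated 1 (adjusted p = 0.119) or DETA/NO 3 (0.267). SLC25A38, a mitochondrial glycine carrier, had 0.237 and lost its call without DETA/NO 3 (adjusted p = 0.0791). SFXN2, a relative of SFXN1, fell by 0.407. SLC1A5 was not called (-0.076), except as lower with upper-quartile scaling or quantile normalization, and SLC1A4, a serine exchanger, was listed at 0.

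Among stress factors and the kinases that phosphorylate eIF2, 6 of 12 tested genes rose and 3 fell. ATF4 mRNA was not called: it had 17037, 17363 and 17807 normalized reads in untreated libraries and 17213 and 16759 in DETA/NO libraries, a log2 fold change of -0.035 ± 0.029 (limma adjusted p = 0.355). ATF4 is known to be controlled largely at translation, which these data do not measure. ATF3 rose by 0.250, CEBPG, a partner of ATF4, by 0.223 and CEBPB by 0.170. TRIB3, a feedback gene of ATF4, stood at 0.193 and lost its call without DETA/NO 1-2 (0.121; adjusted p = 0.0506). EIF2AK2, the kinase activated by double-stranded RNA, rose by 0.845, from 9921, 9899 and 9283 normalized reads in untreated libraries to 19260 and 15742 in DETA/NO libraries. EIF2AK4, the kinase that senses uncharged tRNA, had 0.181 and lost its call without DETA/NO 1-2 (adjusted p = 0.0506). NFE2L2, which encodes NRF2, fell by 0.120. EIF2AK1 at -0.074 and EIF2AK3 at -0.179 passed narrowly. EIF2AK1 lost its call without untreated 1, untreated 2 or either DETA/NO library, and EIF2AK3 without untreated 2, untreated 3 or either DETA/NO library, and 1 gene of this list was lower without untreated 2 or without DETA/NO 1-2.

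**Figure D4:**
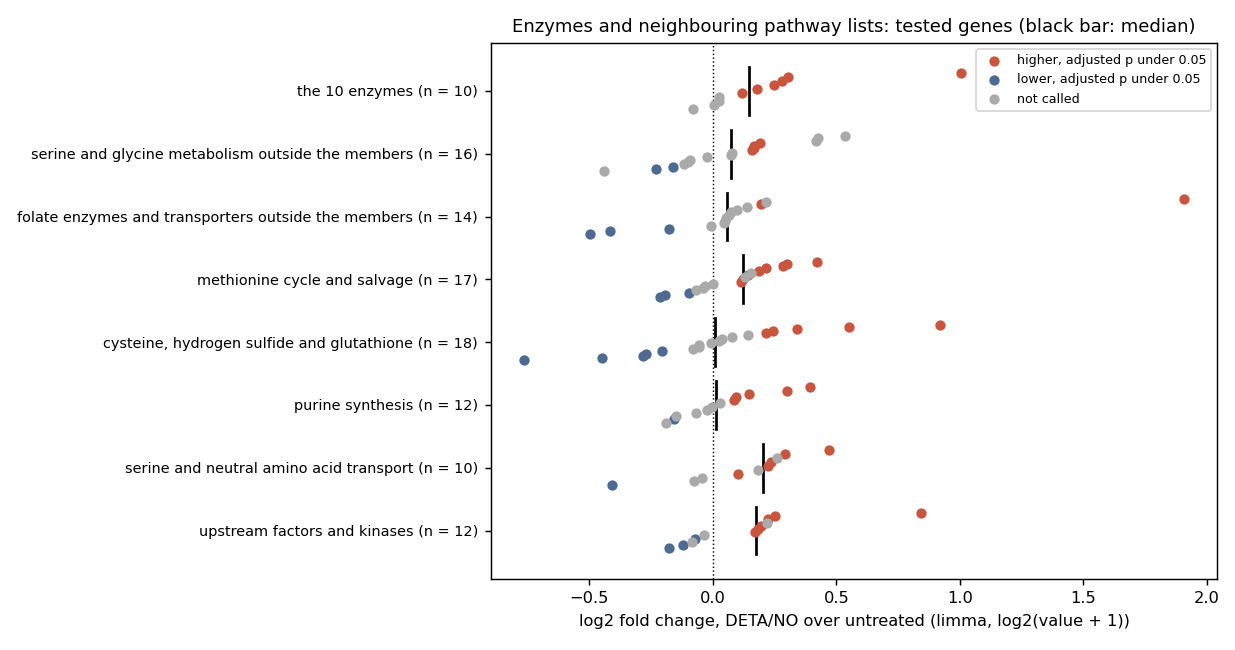
Log2 fold change of DETA/NO over untreated (x axis) of every tested gene among the 10 enzymes and in the 7 neighbouring lists, 1 point per gene; red is higher and blue lower at an adjusted p under 0.05, grey is not called, and a black bar marks each median. Medians run from 0.0097 in the cysteine and glutathione list to 0.202 in the transport list, and the 10 enzymes have no blue point.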

How the data were processed

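RNA-seq values of 6 samples were used. The submitters' processing notes name TopHat2 2.1.1, Bowtie2 2.5.0.0, featureCounts 2.0.3 and DESeq2 1.38.3 with GRCh38; annotation, strand and counting settings are not given in the sources used here. The deposited values (signal) are read counts scaled by the authors with 1 factor per library. In each library 100% of values above 0 were whole multiples of 1 read (tolerance 0.01), so whole reads were recovered, 28897422 to 34637343 per library. In each file 27 row names had become dates (0.246% of reads) and are not named.

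Groups came from the treatment label of each sample. Identical files were counted once. The test was limma 3.58.1 (R 4.3.3) with trend and robust eBayes on log2(value + 1), whose fold changes understate those of low genes. Alternatives were other pseudocounts, filters, scalings and variance settings, edgeR 4.0.16 and DESeq2 1.42.0 on recovered reads, the replicate number as a block, and the omission of single libraries. Ratios (exact permutation test, scipy 1.17.1), coding lengths and the CCAAT search were added after seeing the data. Positions and lengths are from GENCODE 29, promoters from RefSeq (GRCh38.p14), with windows for 8 of 10 members (not PSPH and SHMT2).

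The members and lists were chosen with earlier results of these data known. Named genes are the members, their copies and overlapping genes, up to 4 higher and 4 lower called genes per list by adjusted p, and others always named (among them ATF4, MTHFD2L, MAT2A, AHCY, TYMS, SLC7A11, GCLC, GCLM and EGFR); GLDC, AMT, ADSL, AHCYL2, MPST, SQOR, ETHE1, TST, GGCT, GART, ATIC, SFXN1, SLC1A4, SLC1A5, TRIB3, EIF2AK2, KRT5, EPCAM, CDH1, PGR and CD68 were named after their values were seen. The values of some list genes are not reported here.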

Additional observations from a re-analysis of the deposited data

How the results depend on the processing

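Across 17 alternatives, CTH, CBS, MTHFD1L and PSAT1 were called in each one, SHMT2 in 16 and PSPH in 14, and no member was called lower in any. Without the trend and robust options of limma, 4 members were called higher, 2262 genes were higher and 2497 lower over all genes, and 19 list genes were higher; SHMT2 (adjusted p = 0.0937) and PSPH (0.151) then missed the threshold. With a replicate block, taking the shared DETA/NO library as number 1 or as number 2, 3320 or 3143 genes were higher and 3285 or 3178 lower, and 6 or 5 members were called higher (PSPH adjusted p = 0.0588 in the second). Deviations from group means of same-numbered libraries correlated at 0.0293, 0.00106 and 0.0301 (the shared library counted with both its numbers), none above 0.1. With 2 DETA/NO libraries their deviations are mirror images, so this check cannot decide whether the numbers pair the libraries. DESeq2 called 2786 genes higher and 2556 lower, edgeR 3621 and 3480.

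Signs changed in genes that were not called. PHGDH was -0.0149 with quantile normalization and -0.0156 to 0.0674 with 1 library left out. MTHFD2 was -0.0131 with upper-quartile scaling, -0.00809 with quantile normalization, -0.000996 with the replicate block (number 1) and -0.0263 to 0.0392 with 1 library left out. GCLC was 0.0121 and 0.039 with the replicate block and -0.0694 to 0.039 with 1 library left out. With 1 library left out, ETHE1 ran from -0.126 to 0.0147 and SQOR from -0.00908 to 0.0599. The cause was not tested. Other scalings put the median of all genes between -0.0197 and 0.00123. Over 89 genes named in the text or by rule and their 1508 alternative values, 1368 kept direction and call, 118 lost the call, 8 gained one and 14 changed sign. A gene with few reads has more counting error, and there are only 2 DETA/NO libraries.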
